A study of Mus musculus with 73 samples.

Results

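Prestin, the product of Slc26a5, is the motor protein of outer hair cells, and Atp2a3 encodes SERCA3, a pump that moves calcium into the endoplasmic reticulum. Of 73 single cells labelled as Casz1-null inner hair cells, 51 held Slc26a5 at 10 CPM or more, where CPM is a gene's counts scaled to 1000000 counts of its library. These 51 prestin cells were divided by Atp2a3: 31 held it at 10 CPM or more, and 20 lay below that level (called Atp2a3-low cells here). The other 22 cells, with Slc26a5 below 10 CPM and called prestin-negative, are given beside them. Both genes were used to choose the cells, so their own levels are a description and support nothing else.

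All cells came from cochleae at postnatal day 14 and carried the same alleles: Atoh1Cre/+, Casz1flox/flox, the Ai47 GFP reporter opened by Cre, a tdTomato reporter opened by Flp, and Fgf8-Flpo/+. Cre from Atoh1 acts in developing hair cells in general, while Flp from Fgf8 marks inner hair cells, so cells were picked by hand for carrying both colours. Cells that never opened the Fgf8 reporter are not in this set. The labels name no animal and give 1 group, so the cells are 1 sample without replicates. The values describe these libraries, and no p-value, standard error or test was made from cells. Intervals on shares of cells are exact Clopper-Pearson intervals at 95%. They treat each cell as an independent draw, cover no difference between animals and are no comparison of the sides.

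Inner hair cells pass sound to the auditory nerve through ribbon synapses, where calcium entry releases glutamate. Outer hair cells amplify sound by changing length, and they carry other calcium buffers and a cholinergic efferent synapse. Casz1, a zinc-finger transcription factor, was deleted in the study to ask about the identity of inner hair cells. Calcium in hair cells is handled by pumps of the plasma membrane and the endoplasmic reticulum together with abundant buffer proteins.

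The sides were sequenced to similar depth. Total counts had a median of 17689400 (range 11027900 to 35881800) in cells with Atp2a3 and 17847200 (range 12689700 to 37183700) in Atp2a3-low cells. Genes with a count had medians of 8402 and 8426. The sides were not alike in every property. Ribosomal protein genes took a median of 1.69% of counts with Atp2a3 and 2.05% without, and mitochondrial genes took 6.13% and 5.09%. In 10 of 31 and 9 of 20 cells, 50 CPM was reached by a marker of some other cell type that was found in fewer than 10 of the 73 cells, among them library 5, with B-cell genes, on the first side and library 67 on the second. The part of these properties in the gene differences was not tested beyond the corrected values given below. Casz1 itself was detected in 22 of 31 and 16 of 20 cells, at medians of 33.8 and 42.7 CPM. The labels do not say which exons were removed, so its reads do not check the deletion.

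Atp2a3 lies on chromosome 11 from 72961169 to 72993044 (mm10, plus strand). Among the 31 cells it ran from 20.5 to 1541 CPM with a median of 170 CPM. Of these, 3 cells lay between 10 and 50 CPM, 6 between 50 and 100, 16 between 100 and 500 and 6 at 500 CPM or more. The 20 Atp2a3-low cells ran from 0 to 7.47 CPM with a median of 0.13 CPM. Prestin-negative cells had the highest median, 1178 CPM (range 124 to 2248), and overlapped the cells with both genes. The cells nearest the threshold were 2 just below it, at 4.08 and 7.47 CPM, and 2 just above it, at 20.5 and 38.1 CPM.

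Slc26a5 lies on chromosome 5 from 21810655 to 21865604 (minus strand), and its level was not the same on the sides. Cells with Atp2a3 had a median of 126 CPM (range 11.8 to 884), and Atp2a3-low cells 486 CPM (range 19.6 to 1229). The cells nearest the prestin threshold held 11.8 and 19.6 CPM inside and 5.82 and 6.25 CPM outside. Each side had 16 cells at 100 CPM or more, still with medians of 182 and 549 CPM. Differences were therefore computed also after a linear correction for the Slc26a5 level (called corrected) and within those 16 and 16 cells. Both are given for the main lists. For a gene described outside the 20 highest and 20 lowest, they are given where they end its call. Other shifts are given only in part, so a difference printed alone may have moved in these settings. Over the 31 cells with both genes, the rank correlation of Atp2a3 with Slc26a5 was -0.48.

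**Figure D1:**
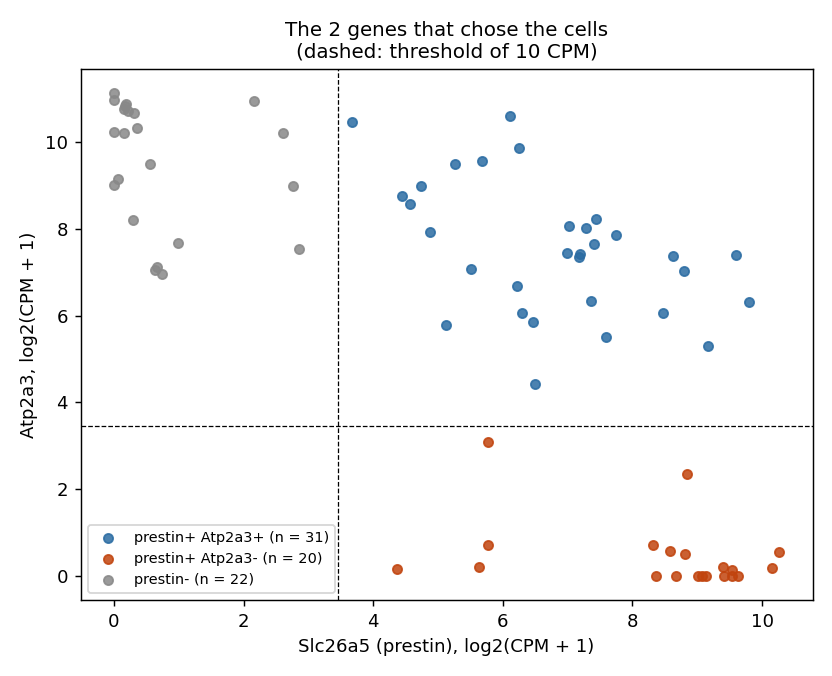
Level of Atp2a3 against Slc26a5 in each of the 73 cells, both as log2(CPM + 1), with dashed lines at 10 CPM. The 31 cells at upper right held both transcripts, the 20 cells at lower right held Slc26a5 with Atp2a3 below 10 CPM, and no cell lay below both thresholds.

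Most transcripts differed little between the sides. Over the 8536 genes that averaged at least 10 CPM in the 51 cells, the median difference of mean log2(CPM + 1), cells with Atp2a3 minus Atp2a3-low cells, was 0.03. A difference of 1 or more counted as higher or lower. By this measure 1047 genes (12.3%) were higher with Atp2a3, 963 (11.3%) were lower, and 6526 (76.5%) lay within 1. Corrected for Slc26a5, 856 (10.0%) were higher and 1172 (13.7%) lower, so the balance of the directions depends on that correction. Within the 16 and 16 cells at 100 CPM of Slc26a5 or more, 1263 (14.8%) were higher and 1143 (13.4%) lower. List counts for either setting are to be read beside these shares. On this scale a gene that is absent from some cells moves as much by the share of cells that hold it as by its level. No gene other than Atp2a3 separated the sides without overlap.

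Pdcd6, a calcium-binding protein also known as ALG-2, came closest to separating them. It ran from 199 to 1529 CPM (median 920) with Atp2a3 and from 66.1 to 615 CPM (median 367) in Atp2a3-low cells. In 94.4% of all pairs of 1 cell from each side, the cell with Atp2a3 was the higher, a measure called pair share here. Apart from Atp2a3, this was the highest pair share of the genes compared. Detected in all 51 cells, Pdcd6 differed by 1.58 log2 units, and by 1.25 corrected for Slc26a5. In prestin-negative cells its median was 1045 CPM.

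The inner hair cell list held 11 genes without Atp2a3, of which 10 passed the level filter. With Atp2a3, 5 were higher, 2 were lower and 3 lay within 1, and the median of the 10 was 0.90 against 0.03 over all genes. The shares of all genes past 1 were 12.3% and 11.3%. Brip1 did not pass the filter and was detected in 2 of 31 and 6 of 20 cells. Corrected for Slc26a5, 2 were higher and 2 lower, with a median of 0.49, beside 10.0% and 13.7% of all genes. At 100 CPM of Slc26a5 or more 3 were higher and 2 lower, with a median of 0.74, beside 14.8% and 13.4%. The number of list members detected per cell was nearly the same, with a median of 9 (range 7 to 11) with Atp2a3 and 8.5 (range 6 to 11) in Atp2a3-low cells. That tally counts presence and not level, and Fgf8, Rprm and Brip1 were detected in a larger share of Atp2a3-low cells. The mean of log2(CPM + 1) over the 11 genes had medians of 6.83 with Atp2a3 and 6.47 in Atp2a3-low cells. By that mean, 8 of the 20 Atp2a3-low cells lay below all 31 cells with Atp2a3.

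The synaptic genes Slc17a8 and Otof of this list were detected in every cell of both sides. Slc17a8 encodes VGLUT3, which fills synaptic vesicles with glutamate. It ran from 436 to 2992 CPM (median 1363) with Atp2a3 and from 468 to 2018 CPM (median 978) in Atp2a3-low cells. Otof, the calcium sensor of vesicle release, ran from 1475 to 5057 CPM (median 3020) and from 1137 to 3277 CPM (median 2203). The ranges overlapped over most of their length, and the differences were 0.48 for Slc17a8 and 0.44 for Otof. Gata3, a transcription factor of the inner ear, was also in all 51 cells, at medians of 246 and 161 CPM, with a difference of 0.72.

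Tbx2, a transcription factor that maintains inner hair cell identity, was not in every cell. With Atp2a3, 26 of 31 cells held it (83.9%, interval 66.3 to 94.5), against 13 of 20 Atp2a3-low cells (interval 40.8 to 84.6%). Its medians were 103 and 56.1 CPM, and 193 CPM in prestin-negative cells. The difference of 1.30 was 0.30 corrected for Slc26a5 and 0.71 at 100 CPM of Slc26a5 or more. Shtn1, a cytoskeletal regulator, differed by 1.21 and was 0.73 corrected. Dnajc5b, a chaperone of the cysteine string family, differed by 1.09 and was 0.66 corrected. All 3 fall within 1 after that correction. At 100 CPM of Slc26a5 or more, Shtn1 stood at 2.00 and Dnajc5b at 0.90.

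Calb2 and Slc7a14 showed larger differences. Calb2 encodes calretinin, a calcium buffer of inner hair cells. It ran from 1793 to 17401 CPM (median 10874) with Atp2a3, and from 347 to 19079 CPM with a median of 1641 CPM in Atp2a3-low cells. The single highest value belonged to an Atp2a3-low cell, but the pair share was 88.9%. The difference of 2.08 remained at 1.46 corrected for Slc26a5. Slc7a14, a member of the cationic amino acid transporter family, was found in 30 of 31 cells (96.8%, interval 83.3 to 99.9) and in 11 of 20 (55.0%, interval 31.5 to 76.9). Its medians were 168 and 26.3 CPM, and the difference was 3.28, or 2.10 corrected.

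Fgf8 and Rprm, also on the inner hair cell list, went the other way. Fgf8 is a growth factor gene of inner hair cells and drove the Flp that marked the picked cells. It was detected in 23 of 31 cells with Atp2a3 and in all 20 Atp2a3-low cells, at medians of 43.2 and 80.6 CPM, and in 8 of 22 prestin-negative cells. Its difference was -1.64, with -0.85 in the cells numbered 37 to 73 and -1.08 at 100 CPM of Slc26a5 or more. The call thus ended in 1 of the 2 sets of cells divided by number. Rprm, a gene known for cell cycle arrest, was detected in 6 of 31 (19.4%, interval 7.45 to 37.5) and 11 of 20 cells (55.0%, interval 31.5 to 76.9), and in 0 of 22 prestin-negative cells. Its difference was -3.08.

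**Figure D2:**
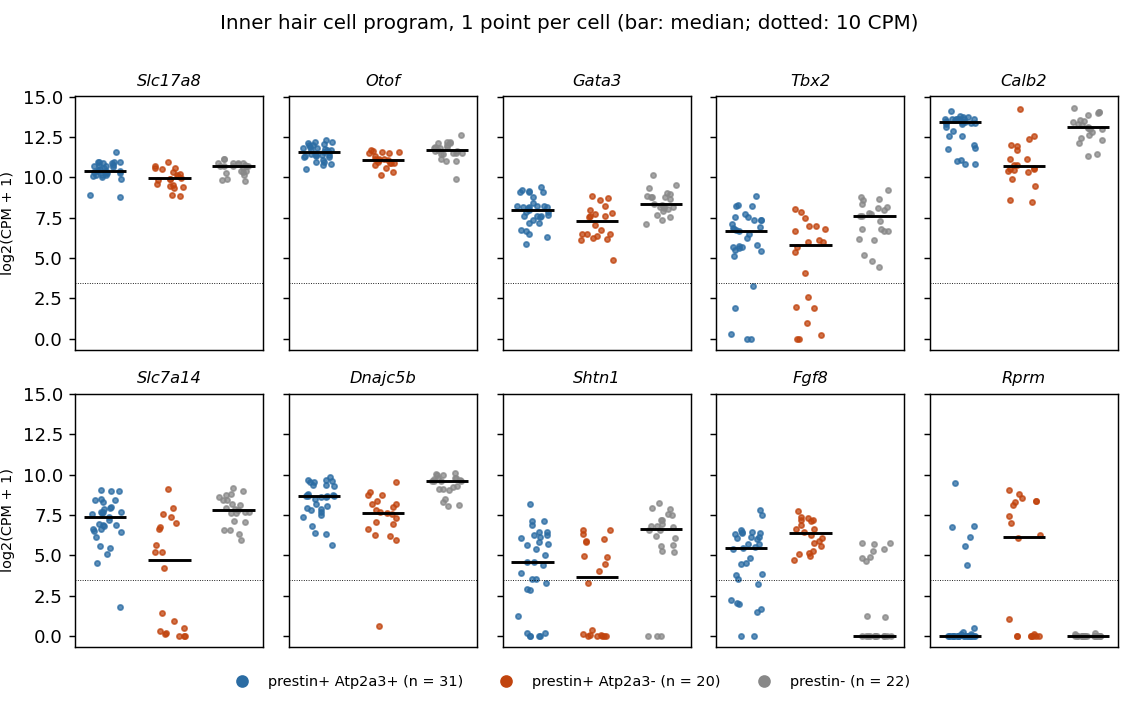
Level of 10 inner hair cell genes as log2(CPM + 1), 1 point per cell, in the 31 prestin cells with Atp2a3, the 20 Atp2a3-low prestin cells and the 22 prestin-negative cells. Bars are medians and the dotted line is 10 CPM. Slc17a8, Otof, Gata3 and Calb2 lie above the line in every cell, whereas Slc7a14 is below it in 9 of the 20 Atp2a3-low cells.

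The list of outer hair cell genes held 13 members without Slc26a5. Of the 10 that passed the filter, 0 were higher with Atp2a3, 3 were lower and 7 lay within 1, with a median of -0.64, beside 12.3% of all genes higher and 11.3% lower. Corrected, 0 were higher and 3 lower, with a median of -0.23, beside 10.0% and 13.7% of all genes. At 100 CPM of Slc26a5 or more 0 were higher and 5 lower, with a median of -1.001, beside 14.8% and 13.4%. Ocm, the calcium buffer oncomodulin, was in all 51 cells, from 214 to 12675 CPM (median 3044) with Atp2a3 and from 555 to 17081 CPM (median 5725) without. Its difference was -0.93, -0.25 corrected for Slc26a5 and -1.26 at 100 CPM of Slc26a5 or more. Sri, a calcium-binding protein, was also in all 51 cells, at medians of 654 and 1220 CPM, with a difference of -0.64, or -0.37 corrected. The ranges of both genes overlapped between the sides. Within the cells at 100 CPM of Slc26a5 or more, the pair share was 23.8% for Ocm and 16.8% for Sri.

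Aqp11, an aquaporin, showed the largest difference of the outer hair cell list. It ran from 0 to 1492 CPM (median 58.6) with Atp2a3 and from 54.2 to 1636 CPM (median 602) in Atp2a3-low cells. It was detected in 27 of 31 (87.1%, interval 70.2 to 96.4) and 20 of 20 cells, and the difference of -3.35 was -1.80 corrected for Slc26a5. Lbh, a transcription cofactor known from outer hair cells, was found in 6 of 31 and 13 of 20 cells, with a difference of -2.47, or -1.58 corrected. Chrna10, which forms part of the cholinergic receptor, differed by -1.13, but by 0.088 corrected for Slc26a5, by 0.40 in the cells numbered 1 to 36 and by -0.94 without libraries 5 and 67.

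Other members lay within 1 or were rarely detected. Car7, a carbonic anhydrase, was in all 51 cells at medians of 942 and 455 CPM, with a difference of 0.61. Kcnn2, a calcium-activated potassium channel, differed by -0.08. Ikzf2, the transcription factor known for outer hair cell maturation, did not pass the filter and was detected in 5 of 31 cells with Atp2a3 (16.1%, interval 5.45 to 33.7) and in 1 of 20 Atp2a3-low cells (5.00%, interval 0.13 to 24.9). Bcl11b and Insm1 were detected in 0 of the 51 prestin cells.

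Calcium buffers and sensors differed in both directions. Of 15 calcium-binding genes compared, 3 were higher with Atp2a3 (Calb2, Pdcd6 and Cabp1), 4 were lower and 8 lay within 1, beside 12.3% and 11.3% of all genes past 1. Corrected, 2 were higher and 3 lower, because Cabp1 stood at 0.34 and Anxa5 at -0.94. Calb1 encodes calbindin, a buffer related to calretinin. It ran from 0 to 3577 CPM (median 127) with Atp2a3 and from 122 to 6768 CPM (median 3641) in Atp2a3-low cells. The difference was -4.81, the lowest pair share of all genes compared belonged to it (10.8%), and its median in prestin-negative cells was 0.56 CPM. Corrected for Slc26a5 the difference was -3.20. Calb2 and Calb1 thus stood at opposite ends in the same division of cells.

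S100a1, another EF-hand protein, was in all 51 cells, from 95.2 to 8988 CPM (median 991) with Atp2a3 and from 925 to 10914 CPM (median 7181) without. Its difference was -2.40. Hpcal1, a neuronal calcium sensor protein, was detected in 16 of 31 and 19 of 20 cells, with a difference of -4.17. Anxa5, a membrane-binding annexin, differed by -1.13, and by -0.92 at 100 CPM of Slc26a5 or more. Pvalb (0.43), Calm2 (-0.19) and Calm3 (-0.09) lay within 1. Calm2 and Calm3 encode the same calcium sensor, and how reads were divided between these genes was not checked.

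Of 13 other genes of the calcium store compared, 1 was higher, 2 were lower and 10 lay within 1, with a median of -0.02. Over all genes 12.3% were higher, 11.3% lower and 76.5% within 1, so these counts are near the shares of all genes. The counts corrected for Slc26a5 were 0 higher and 2 lower. Atp2a2, the other SERCA pump of these cells, was found in 28 of 31 cells (90.3%, interval 74.2 to 97.96) and in 14 of 20 (interval 45.7 to 88.1%). Its medians were 115 and 85.5 CPM and its difference 0.71. The skeletal muscle pump Atp2a1 was detected in 1 of 31 and 0 of 20 cells. Stim2, a sensor of store calcium, differed by -1.44 (-0.70 in the cells numbered 1 to 36), and Atp2c1, the calcium pump of the Golgi apparatus, by -1.74. At 100 CPM of Slc26a5 or more Atp2c1 stood at -0.45. The chaperones Calr (0.53), Canx (-0.12) and Hspa5 (0.20) lay within 1, while Sel1l, of the protein quality control machinery, was at 1.04, or 0.65 corrected and -0.06 in the cells numbered 1 to 36.

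At the plasma membrane, Atp2b2 differed and Atp2b1 did not reach 1. Atp2b2 encodes PMCA2, the calcium pump of stereocilia. Present in 25 of 31 and 20 of 20 cells, it had medians of 108 and 271 CPM, a difference of -2.19 and a pair share of 14.8%. Atp2b1 was in all 51 cells at medians of 768 and 604 CPM, with a difference of 0.39. The 8 other membrane and mitochondrial calcium transport genes compared lay within 1, so of the 10 genes 0 were higher and 1 was lower. The shares of all genes were 12.3% higher and 11.3% lower. Corrected, 1 was higher and 1 lower, beside 10.0% and 13.7% of all genes.

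**Figure D3:**
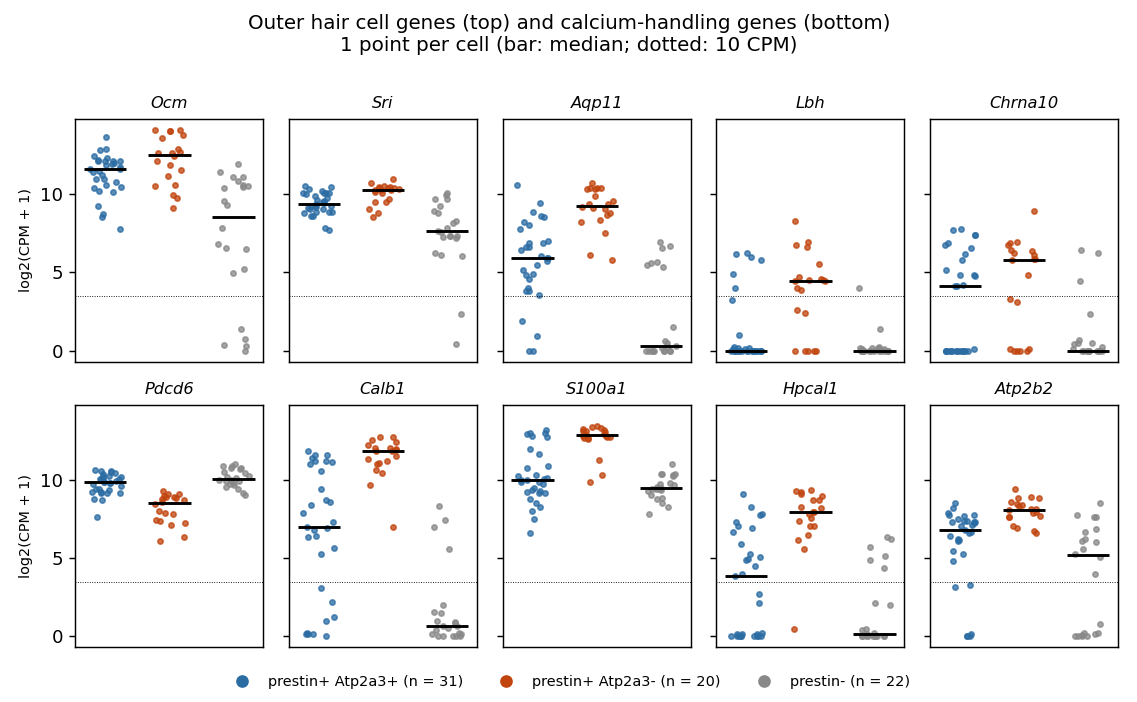
Level of 5 outer hair cell genes (top row) and 5 calcium-handling genes (bottom row) as log2(CPM + 1), 1 point per cell, in the same 3 sets of cells. Bars are medians and the dotted line is 10 CPM. Among the prestin cells Pdcd6 has its higher median in those with Atp2a3, and Calb1, S100a1, Hpcal1 and Atp2b2 have their highest medians in the Atp2a3-low cells.

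The ribbon synapse list held 18 compared genes, of which 5 were higher with Atp2a3, 1 was lower and 12 lay within 1, with a median of 0.46. Over all genes 12.3% were higher and 11.3% lower. Corrected, 3 were higher and 1 lower, with a median of 0.30, beside 10.0% and 13.7% of all genes. At 100 CPM of Slc26a5 or more 5 were higher and 0 lower, beside 14.8% and 13.4%. Vamp2, the vesicle SNARE protein, differed by 2.06, at medians of 142 and 36.5 CPM. Erc2, an active zone scaffold, differed by 1.81 (0.79 corrected), and Cacna2d2, an auxiliary calcium channel subunit, by 1.42. Nsf, which recycles SNARE complexes, stood at 1.31 (0.14 in the cells numbered 37 to 73), and Cabp1 at 1.11 (0.34 corrected). Snap25, a SNARE protein of the target membrane, differed by -1.40, at medians of 120 and 229 CPM, but by -0.80 at 100 CPM of Slc26a5 or more. The channel itself, Cacna1d, was in all 51 cells and differed by 0.12, and Ctbp2, which encodes the ribbon protein RIBEYE, by -0.08.

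Of 14 efferent receptor and ion channel genes compared, 1 was higher with Atp2a3, 5 were lower and 8 lay within 1, beside 12.3% and 11.3% of all genes past 1. Corrected, 1 was higher and 4 were lower, without Chrna10. Chrna9, the partner of Chrna10 in that receptor, was present in 25 of 31 and 20 of 20 cells, at medians of 133 and 355 CPM, with a difference of -2.47, or -1.56 at 100 CPM of Slc26a5 or more. P2rx2, an ATP-gated channel, was detected in 10 of 31 (32.3%, interval 16.7 to 51.4) and 16 of 20 cells (80.0%, interval 56.3 to 94.3), with a difference of -4.18, or -2.32 corrected. It was detected in 0 of the 22 prestin-negative cells. Kcnj13, an inward rectifier, had medians of 314 and 577 CPM and a difference of -1.39 (-0.93 in the cells numbered 37 to 73), and Kcnmb2 differed by -1.495, with -0.90 at 100 CPM of Slc26a5 or more. Kcnab1, a potassium channel subunit, was higher with Atp2a3 at 2.04, with medians of 182 and 72.6 CPM.

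Of 16 general hair cell genes, 1 was higher, 0 were lower and 15 lay within 1, with a median of 0.07. Over all genes the shares were 12.3% higher, 11.3% lower and 76.5% within 1. Corrected, 0 of the 16 were higher and 1 lower. Of 26 genes of mechanotransduction and the hair bundle, 22 lay within 1, 2 were higher and 2 lower, and corrected, 0 were higher and 2 lower. Tmc1, a subunit of the transduction channel, was in all 51 cells at medians of 507 and 299 CPM, with a difference of 1.08, or 0.988 corrected. Myo3b, a motor of stereocilia, was detected in 9 of 31 and 16 of 20 cells, with a difference of -3.23. Myo7a (-0.15), Myo6 (0.12) and Espn (0.12) were within 1. Among 18 transcription factors compared, 5 were higher and 3 lower, and corrected, 3 and 3. Mlxipl, a glucose-responsive factor, stood at 2.86 (1.46 corrected) and Isl1, a LIM homeodomain factor, at -1.34, with -0.92 in the cells numbered 37 to 73.

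For groups that bear on cell condition, the share of all genes within 1, 76.5%, stands beside each count. All 14 mitochondrial genes compared lay within 1, with a median of 0.24, and of 73 ribosomal protein genes 71 did, with a median of -0.28. Of 10 immediate early and stress genes 9 lay within 1, and Junb, an AP-1 factor, was lower with Atp2a3 (-1.63), while 3 were lower corrected. Of 7 p53 and apoptosis genes compared, 5 lay within 1, Bcl2, an inhibitor of apoptosis, stood at 1.22 and Trp53 at -1.46. Bcl2 was at 0.79 corrected and at 0.14 at 100 CPM of Slc26a5 or more, and Trp53 was at -0.34 in the cells numbered 1 to 36. Of 8 housekeeping genes, 7 lay within 1 and Tbp was at -1.68.

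The 20 genes with the largest positive difference, without Atp2a3, began with Igfbp5. Igfbp5, a binding protein of insulin-like growth factors, lies on chromosome 1 from 72857932 to 72874884. It ran from 0 to 4277 CPM (median 2005) with Atp2a3 and from 0 to 1507 CPM (median 1.58) in Atp2a3-low cells, and its median in prestin-negative cells was 2582 CPM. Detection was in 24 of 31 (77.4%, interval 58.9 to 90.4) and 7 of 20 cells (interval 15.4 to 59.2%), with a difference of 5.22. Osbp2, an oxysterol-binding protein, followed at 4.40, detected in 25 and 6 cells. Myl4, a myosin light chain, was at 3.78 with a pair share of 88.4%.

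Pter, a phosphotriesterase-related gene, was detected in 19 of 31 and 1 of 20 cells (difference 3.95). Ankrd13d (3.73), Tlcd4 (3.72), the histone-binding gene Rbbp7 (3.57), Slc7a14 (3.28) and the magnesium transporter Magt1 (3.24) came next. The others were Dcaf10, Rerg, Bin1, Alk, Ak1, Pcgf5, Mlxipl, Scd1, Sfxn3 and Lrrc52, from 3.21 to 2.72. All 20 stayed at 1 or more in the same direction after correction for Slc26a5 (1.46 to 3.50) and at 100 CPM of Slc26a5 or more. They were chosen for the size of their difference, so that size is a description.

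The 20 genes with the largest negative difference began with Ecel1, an endopeptidase-like protein known from nerve injury. It lies on chromosome 1 from 87147655 to 87156521. It was detected in 10 of 31 (32.3%, interval 16.7 to 51.4) and 18 of 20 cells (90.0%, interval 68.3 to 98.8), at medians of 0.10 and 415 CPM, with a difference of -5.22. Tnfaip3, which encodes A20, an inhibitor of NF-kB signalling, was at -4.92, and Socs2, a suppressor of cytokine signalling, at -4.83. Calb1 (-4.81), the DNA polymerase gene Pole (-4.68), Lce6a (-4.67) and Rab27b (-4.60), a small GTPase of vesicle trafficking, followed.

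Car2, a carbonic anhydrase, was detected in 23 of 31 and 20 of 20 cells, at medians of 133 and 1290 CPM, with a difference of -4.23. Tgfb2, a growth factor gene, stood at -3.93, and Tnc, which encodes the matrix protein tenascin C, at -3.93. H2-D1, H2-K1, Cxcl10, Gstm7, P2rx2, Hpcal1, Sox10, Pxn, Thsd7a and Tspan8 completed the list. All 20 stayed at -1 or less after correction for Slc26a5 and at 100 CPM of Slc26a5 or more, but by the log2 ratio of mean CPM Lce6a stood at -0.93. H2-D1 and H2-K1 have near-identical copies, as does Gstm7, so their counts are uncertain. Cxcl10 overlaps Art3 on the other strand, as Rbbp7 does Txlng, Dcaf10 does Exosc3 and Chrna10 does Art1, and no source states whether counting used the strand. Pole (chromosome 5 from 110286306 to 110337474, plus strand) and P2rx2 (from 110339812 to 110343212, minus strand) are neighbours that end toward each other without overlap in the annotation.

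**Figure D4:**
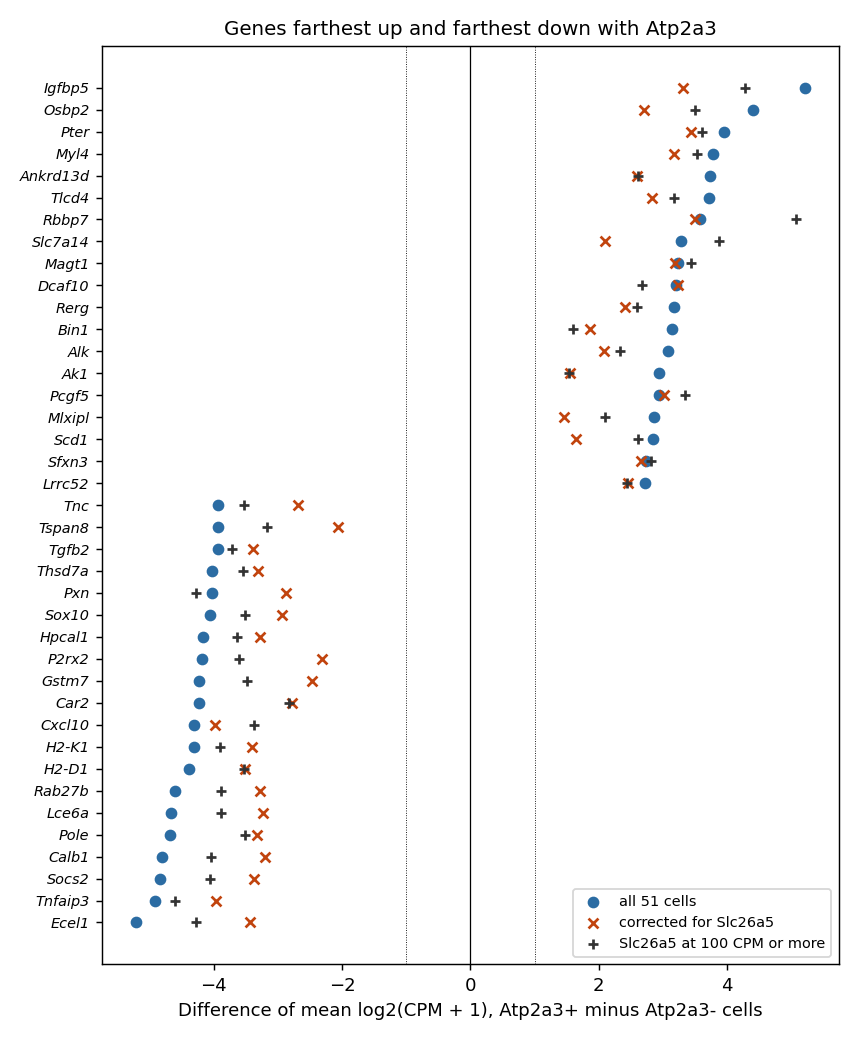
Difference of mean log2(CPM + 1), cells with Atp2a3 minus Atp2a3-low cells, for the genes named from the 20 highest and the 20 lowest on this scale, without Atp2a3 and Slc26a5. Filled circles are all 51 cells, diagonal crosses the values corrected for Slc26a5, and upright crosses the 16 and 16 cells with Slc26a5 at 100 CPM or more. Every marker lies outside the dotted lines at -1 and 1.

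Genes whose level was most like that of Atp2a3 were ranked by Spearman correlation over the 51 cells, which share 1 source and a range of prestin levels. Pdcd6 was first (0.77), then Igfbp5 (0.68), Calb2 (0.67), Myl4 (0.67), Snap91 (0.64), Ankrd13d (0.64), Osbp2 (0.64), the defensin gene Defb25 (0.64) and Bin1 (0.63). Snap91, a clathrin assembly protein, was in all 51 cells at medians of 830 and 427 CPM. Within the 31 cells that hold Atp2a3 these correlations ran lower, from 0.60 for Igfbp5 to 0.32 for Calb2. For the inner hair cell genes within those 31 cells, the values were 0.32 for Slc17a8, 0.20 for Otof, -0.09 for Gata3 and 0.00 for Tbx2.

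Sox10 stood out among the markers of other cell types. This transcription factor of glia and of early inner ear cells was detected in 9 of 31 cells with Atp2a3 (29.03%, interval 14.2 to 48.04), in 18 of 20 Atp2a3-low cells (90.0%, interval 68.3 to 98.8) and in 0 of 22 prestin-negative cells. Its medians were 0 and 82.4 CPM, and the difference was -4.05. Among the other glial markers, Mbp and Pmp22 were detected in 0 of the 51 cells, Mal and Mag in 1 cell each, and Cnp in 12 of 31 and 11 of 20 cells (-0.84, or -1.02 corrected). The summed level of the 8 markers had a median of 20.7 CPM (range 0 to 498) with Atp2a3 and of 159 CPM (range 0 to 260) without. Supporting cell markers had summed medians of 1.31 and 15.1 CPM (ranges 0 to 282 and 0 to 1353), and Prox1 and Lfng were detected in 0 cells.

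Because Tnfaip3, Cxcl10, H2-D1 and H2-K1 were among the lowest 20, lists of NF-kB and of MHC class I genes were added after those values were seen. NF-kB transcription factors are held in the cytoplasm by inhibitors such as IkB-alpha, the product of Nfkbia, and once released they switch on genes of inflammation together with their own inhibitors. MHC class I molecules carry peptides to the cell surface, with B2m as their shared light chain. Since these lists were chosen with the values in view, their counts describe the genes and support nothing. The 250 bases before the start of 4 of these genes and of Atp2a3 are shown from RefSeq (GRCm38.p6), read 5′ to 3′ on the strand of the gene. They are shown because the genes differ between the sides and the known binding sequence of NF-kB can be looked for. The 4 list genes shown all hold a match. Rela, which also differed (-2.10), held none in its 250 bases and is not shown. Capitals mark letters that match the 10-base NF-kB consensus, searched on both strands, with overlapping matches run together.
Nfkbia, chr12:55492648-55492897, minus strand: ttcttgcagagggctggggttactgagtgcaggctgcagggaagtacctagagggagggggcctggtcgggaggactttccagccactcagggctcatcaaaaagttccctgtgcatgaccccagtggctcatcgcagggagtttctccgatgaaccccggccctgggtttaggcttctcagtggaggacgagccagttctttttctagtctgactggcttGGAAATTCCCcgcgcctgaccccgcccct
Tnip1, chr11:54962941-54963190, minus strand: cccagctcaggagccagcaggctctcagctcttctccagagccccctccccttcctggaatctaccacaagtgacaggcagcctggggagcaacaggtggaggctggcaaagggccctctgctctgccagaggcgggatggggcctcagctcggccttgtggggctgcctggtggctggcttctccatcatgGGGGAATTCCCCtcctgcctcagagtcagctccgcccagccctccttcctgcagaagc
Cxcl10, chr5:92348890-92349139, minus strand: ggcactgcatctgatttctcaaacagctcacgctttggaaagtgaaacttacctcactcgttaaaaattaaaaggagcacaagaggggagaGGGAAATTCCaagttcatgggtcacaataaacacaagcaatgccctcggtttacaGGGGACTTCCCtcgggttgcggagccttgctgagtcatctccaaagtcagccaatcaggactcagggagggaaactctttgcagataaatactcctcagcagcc
H2-K1, chr17:34000348-34000597, minus strand: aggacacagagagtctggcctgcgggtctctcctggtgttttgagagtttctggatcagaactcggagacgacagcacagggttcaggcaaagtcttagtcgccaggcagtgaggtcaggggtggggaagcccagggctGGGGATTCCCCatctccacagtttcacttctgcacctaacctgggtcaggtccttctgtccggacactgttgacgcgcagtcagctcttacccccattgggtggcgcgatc
Atp2a3, chr11:72960919-72961168, plus strand: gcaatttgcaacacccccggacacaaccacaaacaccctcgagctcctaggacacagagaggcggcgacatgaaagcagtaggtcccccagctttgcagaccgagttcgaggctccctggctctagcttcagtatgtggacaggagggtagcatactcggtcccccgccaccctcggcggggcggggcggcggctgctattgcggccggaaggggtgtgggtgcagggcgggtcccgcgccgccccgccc

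In windows that also hold the 50 bases after the start, the consensus was found at 8.46% of 32851 promoters, and 9.55% of 27025 genes had it in at least 1 promoter. Of the 9 NF-kB genes compared, 7 had a promoter in the table and 6 of these held a match. Of the 4 MHC class I genes compared, 3 held one. Many of these genes are textbook targets of NF-kB, and a match is a description of letters and no measure of binding. The window of Atp2a3 held no match, which says nothing about the factor.

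All 9 NF-kB genes compared were lower with Atp2a3, with a median of -3.27, against 11.3% of all genes. Nfkbia ran from 0 to 2745 CPM (median 164) with Atp2a3 and from 26.5 to 3855 CPM (median 1808) in Atp2a3-low cells, with a difference of -3.58. Prestin-negative cells had a median of 51.99 CPM. Tnfaip3 was detected in 8 of 31 (25.8%, interval 11.9 to 44.6) and 19 of 20 cells (interval 75.1 to 99.9%). Relb and Nfkb2, members of the alternative branch of the pathway, differed by -3.27 and -3.34. Rela (-2.10), Nfkb1 (-2.10), Rel (-2.15), Tnip1 (-1.27) and the chemokine gene Cxcl10 (-4.31) were lower as well.

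The 6 other genes of the list were too low to compare: Ccl2, Ikbke and Traf1 were detected in 0 prestin cells, Icam1 in 1, and Birc3 and Bcl3 in 3 each. Corrected for Slc26a5, 8 of the 9 genes stayed at -1 or less, with a median of -2.51, beside 13.7% of all genes. At 100 CPM of Slc26a5 or more 8 did, beside 13.4%. The exceptions were Rela at -0.72 and Rel at -0.43, and at that level Nfkb1 stood at -1.22. All 9 did in the cells numbered 1 to 36 (median -2.35), in those numbered 37 to 73 (median -2.34) and without libraries 5 and 67 (median -3.24). Of all genes, 17.7%, 16.1% and 11.4% were lower in these settings. Without the cells that carry such rare markers of other cell types, 8 did, with a median of -2.18, beside 14.8% of all genes. By the log2 ratio of mean CPM 6 did, beside 6.79% of all genes. Nfkb1 then stood at -0.87, Rel at -0.65 and Tnip1 at -0.73. With a pseudocount of 10, 8 did, beside 2.89% of all genes, and Tnip1 stood at -0.52.

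Of the 4 MHC class I genes compared, 3 were lower with Atp2a3, beside 11.3% of all genes, and the list was chosen with these values in view. Corrected, and at 100 CPM of Slc26a5 or more, 3 were lower, beside 13.7% and 13.4% of all genes. In the cells numbered 1 to 36, 2 of the 4 were lower, B2m stood at -0.57 and the highest member at 0.87. By the log2 ratio of mean CPM 2 of the 4 were lower as well, and B2m stood at -0.75. H2-K1 was found in 14 of 31 cells (45.2%, interval 27.3 to 63.97) and in 20 of 20, at medians of 0.65 and 252 CPM, with a difference of -4.31. H2-D1 differed by -4.39, B2m by -2.41 and Tapbp, a loading factor, by -0.87. Tap1, Psmb8, Psmb9 and Nlrc5 were each detected in at most 2 of the 51 cells. Of 4 interferon-responsive genes compared, Irf1 stood at -2.32, Stat2 at 1.13, and Irf9 (0.43) and Ifit1 (0.07) within 1. Corrected, Stat2 was at 0.69 and Irf9 at 1.11, and without libraries 5 and 67 Stat2 was at 0.87.

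Cells were not all alike within a side. Of the 6 genes Nfkbia, Tnfaip3, Relb, Nfkb2, H2-K1 and H2-D1, the median number detected per cell was 2 with Atp2a3, 6 in Atp2a3-low cells and 1 in prestin-negative cells. At least 5 were detected in 6 of 31, 18 of 20 and 2 of 22 cells. The 6 genes were chosen with their differences between the sides in view, so these counts describe the cells and support nothing. Rela, Rel, Nfkb1, Tnip1, B2m and Tapbp, which differed less, were not among them. Cxcl10, at -4.31, differed more than some of the 6 and was left out too. Markers of immune cells stand beside this as follows. Tyrobp, C1qa, C1qc and Csf1r, which mark macrophages and microglia, were detected in 0 of the 51 cells, and Ptprc, the marker of blood leukocytes, in 1 cell with Atp2a3. C1qb was detected in 8 of 31 and 9 of 20 cells, Ighm in 1 and 3, and Cd74 in 2 and 0. The summed level of the 10 immune markers had a median of 0.10 CPM (range 0 to 6703) with Atp2a3 and of 50.4 CPM (range 0 to 307) in Atp2a3-low cells.

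**Figure D5:**
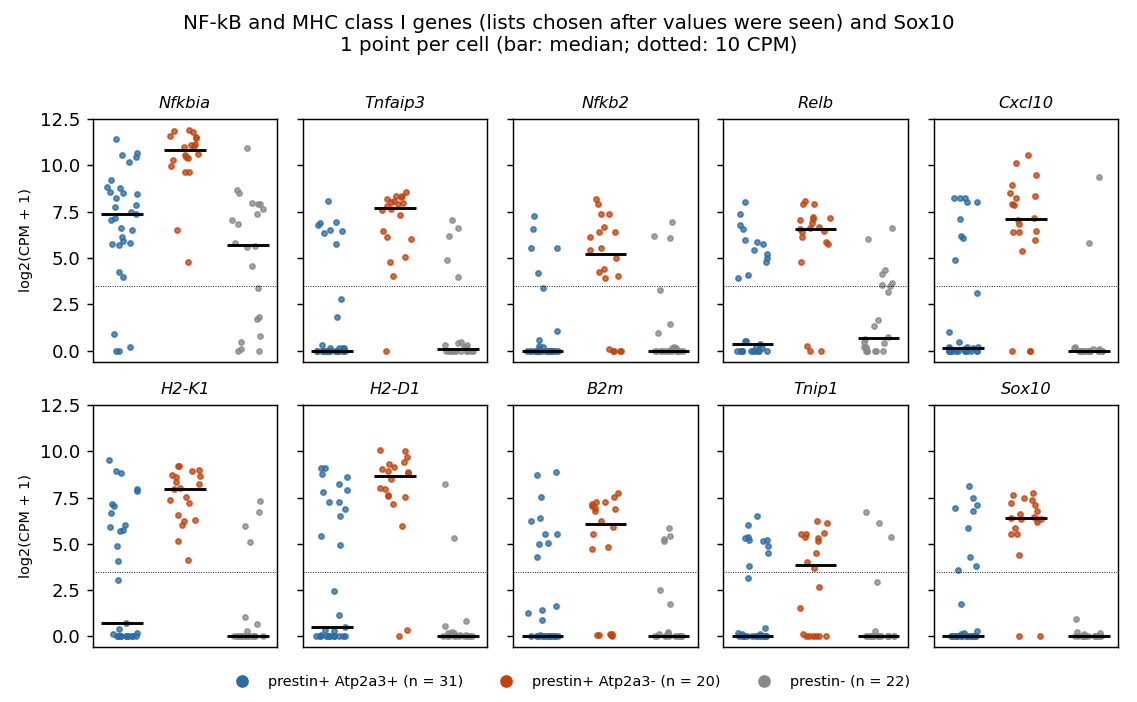
Level of 9 NF-kB and MHC class I genes and of Sox10 as log2(CPM + 1), 1 point per cell, in the 3 sets of cells. Bars are medians and the dotted line is 10 CPM. The genes shown have their highest medians in the 20 Atp2a3-low cells, where Nfkbia and H2-K1 were detected in all 20. Sox10 was detected in 0 of the 22 prestin-negative cells.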

How the data were processed

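Single picked cells were amplified to full-length cDNA (Smart-Seq HT) and tagmented, per the labels' protocols. Without molecular identifiers, PCR copies are counted too. What the authors deposited is a table of raw counts, 1 column per cell. Tools in the submitters' processing notes are featureCounts 2.0.1, HISAT2 2.2.1 and StringTie 2.2.1, with build mm10. Tool settings, the annotation release and the use of strand are not given in the sources used here.

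Library totals left out the reporter row WPRE and summed 55291 gene rows. Counts were divided by the total to give CPM, and differences used log2(CPM + 1) over genes averaging at least 10 CPM in the 51 cells. Detection meant at least 10 CPM, or 110 to 372 counts in these libraries. The shares of cells carry exact 95% intervals. Because cells of 1 group are not replicates, no count model was fitted, and no p-value was made. The difference step was tested on simulated counts in which every gene varied around a mean level of its side, and it recovered the median changes put in. Genes absent from part of the cells were not simulated, so that test does not cover them. Alternatives changed 1 choice at a time, and TMM factors came from edgeR 4.0.16 in R 4.3.3.

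The text names list members, the 20 highest and 20 lowest genes by difference (without Atp2a3, Slc26a5 and genes lacking an official name) and the 10 genes most like Atp2a3. Some genes covered by these choices are not reported here. The members, the 22 lists and the thresholds were chosen with earlier results of these data known. The NF-kB, MHC class I and interferon lists, the motif search, and genes named outside the rule were chosen after values were seen. Positions come from GENCODE vM21 of the same build, which matched 68 of 69 symbols looked up, and promoters from RefSeq. The table gave no identical libraries. Scripts ran in Python 3.11.15 with scipy 1.17.1, pandas 2.3.3, matplotlib 3.10.9 and numpy 2.4.6.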

Additional observations from a re-analysis of the deposited data

Results flagged for a closer look

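Reads of the reporter element WPRE, a row of the count table that is no mouse gene and was left out of every comparison, were present in all 73 cells. Its level had a median of 187 CPM in prestin cells with Atp2a3, 117 in Atp2a3-low cells and 128 in prestin-negative cells. The ranges, 44.1 to 283, 61.005 to 357 and 48.4 to 429, overlapped. Cells without the reporter were not analysed here.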

How the results depend on the processing

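No paired analysis was possible because the cells form 1 group and the labels pair none of them. No setting turned the direction of the inner hair cell list (median 0.90, from 0.47 to 1.03) or of the outer hair cell list (-0.64, from -1.001 to -0.23). Counts of genes past 1 log2 unit moved more. A mean of 50 CPM or more gave 389 higher and 409 lower of 3770 genes, and a pseudocount of 10 gave 193 and 247. The log2 ratio of mean CPM gave 580 lower genes, and the cells numbered 1 to 36 (15 and 7 cells) gave 1859 and 1512. The cells numbered 37 to 73 (16 and 13 cells) gave 1281 and 1378. The part of subset size in these counts was not tested. Of the 1047 and 963 genes, 652 and 760 stayed past 1 corrected for Slc26a5. The outer hair cell gene Chrna10 turned to 0.088 corrected for Slc26a5 and to 0.40 in the cells numbered 1 to 36. Leaving out libraries 5 and 67, a setting chosen after the data were seen, gave 1044 and 975. Of 92 genes past 1 that belong to the lists or the ranked genes, 55 stayed past it in every setting. Calls ended for 23 with a pseudocount of 10, for 22 by the log2 ratio of mean CPM, for 16 corrected for Slc26a5, for 12 by the difference of medians, and for 12 each in the cells numbered 1 to 36, in those numbered 37 to 73 and without cells holding rare markers. One sample without replicates, counts with PCR copies and unknown strand use limit these values.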
